A study of Rattus norvegicus with 47 samples.

Results

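Ifitm1, Ifitm2, Ifitm3, Ifitm6 and Plscr1 are interferon-inducible genes of membrane proteins. These 5 genes, of 20935 genes with a symbol on the array, were followed in rat blood over 24 h after middle cerebral artery (MCA) occlusion. They were chosen as a family by gene symbol, and because Ifitm6 and Plscr1 were seen to rise steeply in these same data. The values of those 2 genes are therefore given as a description with no test, while Ifitm1, Ifitm2 and Ifitm3 were taken along as relatives and were tested. Where a symbol had more than 1 probe set, the probe set with the highest mean signal over the 6 time points was used.

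Blood was drawn from 8 male spontaneously hypertensive rats (SHR), 16 weeks old, and 47 samples were hybridized to Affymetrix RatGene arrays. There were 8 arrays each at 0, 1, 2, 3 and 24 h and 7 at 6 h. The 0 h sample was drawn before anesthesia, and served as the baseline for the same rats. Stroke was induced with a coated thread pushed up the internal carotid artery, and the thread was withdrawn under renewed anesthesia between the 1 h and 2 h samples, so that the later samples followed reperfusion. Samples up to 6 h came from a tail vein into heparin and the 24 h sample from the heart after an anesthetic overdose, so the site of the draw and the time cannot be told apart at 24 h. There was no sham-operated group on these arrays, and the occlusion cannot be told apart from the surgery, the anesthesia or the repeated draws. The RNA came from the whole pellet of blood cells. In such a mixture, a change in the share of a cell type and a change in the RNA within each cell cannot be told apart.

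Interferon-induced transmembrane (IFITM) proteins are small proteins that sit in cell membranes and hinder enveloped viruses from fusing with them. IFITM1 is found largely at the cell surface, whereas IFITM2 and IFITM3 reside mainly in endosomes and lysosomes. Ifitm6 is a rodent member of the family known from myeloid cells. Phospholipid scramblase 1, encoded by Plscr1, is a calcium-binding protein that is anchored to membranes by fatty acid chains, was named for moving phospholipids between the leaflets of the membrane, and can also enter the nucleus. Interferons reach such genes through Janus kinases and STAT proteins, which bind interferon-stimulated response elements (ISRE) or gamma-activated sites (GAS) in promoters.

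The 4 Ifitm genes form a cluster on chromosome 1. In the rn5 coordinates of the authors' table, the probe set of Ifitm2 (10726679) covered chr1:220671382-220672562 on the minus strand and that of Ifitm1 (10712171) chr1:220687879-220689005 on the plus strand. The probe sets of Ifitm3 (10726682) at chr1:220730713-220731869 and Ifitm6 (10726687) at chr1:220736202-220738288 were both on the minus strand. Together the 4 probe sets spanned 66.91 kb. Plscr1 (10912218) was placed at chr8:99108914-99129253 on the plus strand.

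The promoters are shown because all these genes are known as interferon targets, and the elements through which interferon acts can be looked for in the letters. RefSeq promoters on the GRCr8 build were matched for 4 of the 5 genes; Ifitm1 was not in the table. The lines below give the 120 bases just before each RefSeq gene start, 5′ to 3′ on the gene's strand, with the ISRE core in capitals.
Ifitm2, chr1:205482349-205482468, minus strand: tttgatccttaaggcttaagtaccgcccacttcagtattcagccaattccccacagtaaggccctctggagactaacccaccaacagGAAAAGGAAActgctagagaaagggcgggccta
Ifitm3, chr1:205541759-205541878, minus strand: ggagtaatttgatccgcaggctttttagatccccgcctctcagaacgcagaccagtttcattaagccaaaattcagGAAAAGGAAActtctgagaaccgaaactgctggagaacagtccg
Ifitm6, chr1:205547921-205548040, minus strand: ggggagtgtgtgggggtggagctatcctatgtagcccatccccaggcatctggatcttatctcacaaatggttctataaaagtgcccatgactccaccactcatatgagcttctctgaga
Plscr1, chr8:101664001-101664120, plus strand: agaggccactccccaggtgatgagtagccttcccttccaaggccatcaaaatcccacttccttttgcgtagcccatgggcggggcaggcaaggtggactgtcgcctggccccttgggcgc

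The letters searched were GAAANNGAAA for the ISRE core and TTCNNNGAA for GAS, on both strands, from 250 bases before to 50 bases after the start. Ifitm2 and Ifitm3 carried the same ISRE core, GAAAAGGAAA, at positions -33 to -24 and -44 to -35 from their starts. Ifitm3 also had the GAS letters TTCTGAGAA at -33 to -25, which did not overlap its ISRE core. Neither motif was found in this window of Ifitm6 or of Plscr1. Of all 33469 promoters of the same 300 bases, 3.92% held the ISRE core and 8.87% the GAS letters. These matches describe the sequence, and binding was not measured.

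All values below are authors' means of log2 signal over the arrays of a time point, with the authors' SD in parentheses. Values of single arrays were not used here, so the lowest and highest array cannot be given. Signal levels of different probe sets are not comparable, and changes from 0 h are compared instead.

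The largest rise from 0 h among the 5 genes was that of Ifitm6 at 1, 2, 6 and 24 h, and that of Plscr1 at 3 h. The log2 signal of Ifitm6 was 7.96 (SD 0.51) at 0 h and 9.9 (SD 0.22) at 1 h. It was 10.84 (SD 0.37) at 2 h, 10.82 (SD 0.27) at 3 h and 11.63 (SD 0.27) at 6 h. At 24 h it was 8.98 (SD 0.92). The change from 0 h was 3.84-fold at 1 h, 7.37-fold at 2 h, 7.24-fold at 3 h, 12.7-fold at 6 h and 2.03-fold at 24 h. Among the rises of all 27596 probe sets, those of Ifitm6 ranked 5, 2, 5 and 4 at 1, 2, 3 and 6 h. The means plus or minus 1 SD did not overlap with 0 h from 1 to 6 h, and did overlap at 24 h. This is a description and no test, since Ifitm6 was chosen for its rise in these data. The SD of 0.92 at 24 h was the largest of any time point for this gene and ranked 5 among the SDs of all probe sets at 24 h.

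Plscr1 had its largest mean at 3 h and Ifitm6 at 6 h. The Plscr1 log2 signal was 6.81 (SD 0.20) at 0 h, 7.7 (SD 0.25) at 1 h and 8.42 (SD 0.31) at 2 h. It was 9.93 (SD 0.47) at 3 h, 9.77 (SD 0.31) at 6 h and 7.59 (SD 0.41) at 24 h. The mean at 3 h was 8.75-fold over 0 h, against 1.86-fold at 1 h and 3.06-fold at 2 h. At 6 h the signal was 7.83-fold and at 24 h 1.73-fold that at 0 h. Among all probe sets its rise ranked 170, 89 and 2 at 1, 2 and 3 h. Between 2 and 3 h alone, Plscr1 gained 1.51 on the log2 scale, rank 2 among all probe sets for that step. The mean minus 1 SD stayed above the mean plus 1 SD of 0 h at all 5 later time points, 24 h included. Plscr1 was chosen for its rise in these same data, so this separation is a description and no test.

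**Figure D1:**
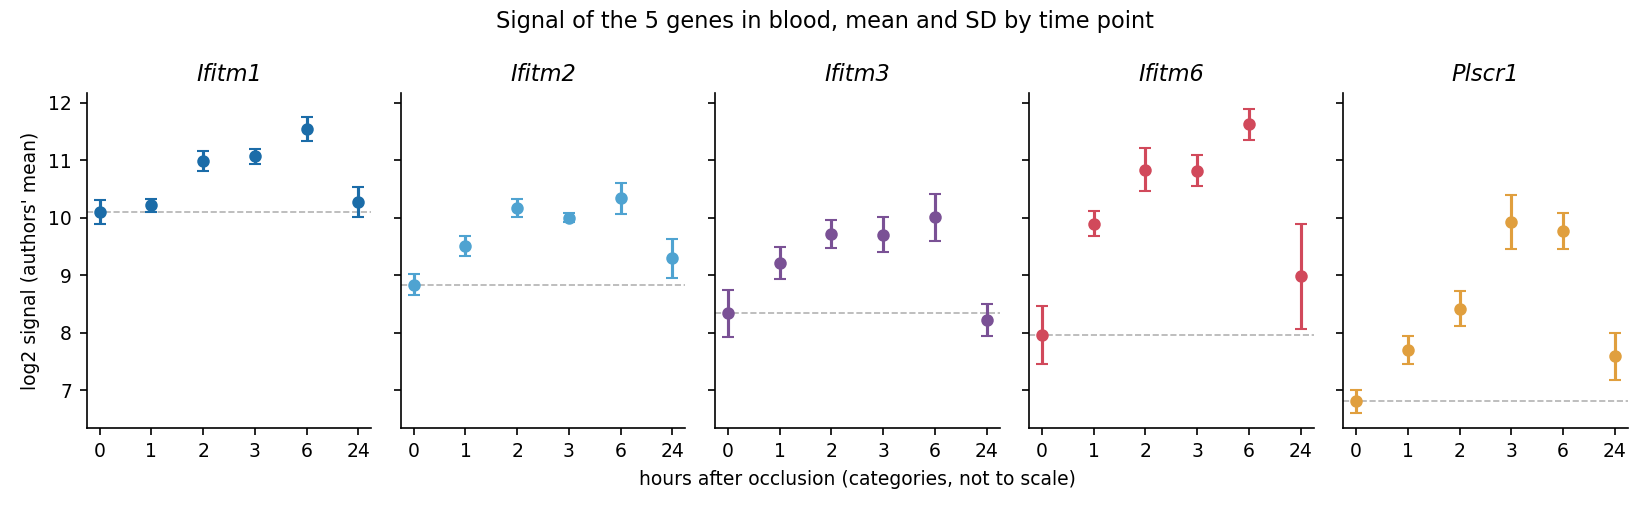
Log2 signal of the 5 genes at each time point; points are the authors' means over 8 arrays (7 at 6 h), bars the authors' SD, and the dashed line the mean at 0 h. Ifitm6 goes from 7.96 at 0 h to 11.63 at 6 h, Plscr1 peaks at 9.93 at 3 h, and Ifitm1 is still at 10.22 at 1 h after 10.1 at 0 h; levels are not comparable between panels.

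A separate probe set bore the symbols of both Plscr2 and Plscr1 (10912229, chr8:99133966-99210708, plus strand, rn5) and did not follow the Plscr1 probe set. Its mean was 6.96 (SD 0.25) at 0 h, 6.55 (SD 0.30) at 1 h and 6.34 (SD 0.18) at 2 h. It was 6.81 (SD 0.43) at 3 h, 7.0 (SD 0.21) at 6 h and 6.41 (SD 0.31) at 24 h. The changes from 0 h were -0.4, -0.62, -0.15, 0.04 and -0.55, so that the direction was opposite to that of the Plscr1 probe set at 1, 2, 3 and 24 h. Its coordinates lay downstream of those of the Plscr1 probe set and did not overlap them. The rise given for Plscr1 is that of probe set 10912218 alone.

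Ifitm1, Ifitm2 and Ifitm3 all rose, to a maximum at 6 h in each. The 3 genes were compared with 0 h by limma's moderated test, with Benjamini-Hochberg adjustment over all 27596 probe sets at a threshold of 0.05. All 3 were called higher at 2, 3 and 6 h, only Ifitm2 and Ifitm3 at 1 h, and only Ifitm2 at 24 h. Thus 12 of the 15 comparisons passed. Calls were common on these arrays: the share of all probe sets called higher at 1, 2, 3, 6 and 24 h was 21.7%, 21.7%, 27.3%, 22.5% and 17.4%. These shares depend on the scaling. After the means were centred on the median of all probe sets, 3465 probe sets were higher and 5189 lower at 1 h in place of 5997 and 4240, 5284 and 5911 at 3 h in place of 7539 and 5296, and 2749 and 4627 at 24 h in place of 4794 and 3826.

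Ifitm1 stood at 10.1 (SD 0.21) at 0 h and 10.22 (SD 0.11) at 1 h, a difference within the SD at 0 h. It was 10.99 (SD 0.17) at 2 h, 11.07 (SD 0.13) at 3 h, 11.55 (SD 0.21) at 6 h and 10.28 (SD 0.26) at 24 h. Its log2 change was 0.12 at 1 h (95% interval -0.06 to 0.31, adjusted p = 0.304), 0.89 at 2 h (adjusted p = 4.91e-11) and 0.97 at 3 h (adjusted p = 4.87e-12). At 6 h it was 1.45 with SE 0.0959, a 2.72-fold rise (adjusted p = 2.89e-17). At 24 h the change was 0.18 and did not pass the test (95% interval -0.01 to 0.36, adjusted p = 0.139).

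Ifitm2 stood at 8.84 (SD 0.19) at 0 h and at 9.51 (SD 0.18) by 1 h. It was 10.17 (SD 0.15) at 2 h, 10.0 (SD 0.08) at 3 h, 10.34 (SD 0.27) at 6 h and 9.3 (SD 0.34) at 24 h. Its log2 change was 0.67 at 1 h (adjusted p = 2.02e-06), 1.33 at 2 h (adjusted p = 9.91e-15) and 1.16 at 3 h (adjusted p = 8.15e-13). At 6 h it was 1.5 with SE 0.108, a 2.82-fold rise (adjusted p = 4.84e-16). The change at 24 h was 0.46 (95% interval 0.25 to 0.67, adjusted p = 0.000833), although the means plus or minus 1 SD overlapped.

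Ifitm3 stood at 8.34 (SD 0.41) at 0 h and 9.21 (SD 0.28) at 1 h. It was 9.72 (SD 0.25) at 2 h, 9.71 (SD 0.31) at 3 h, 10.01 (SD 0.41) at 6 h and 8.22 (SD 0.28) at 24 h. Its log2 change was 0.87 at 1 h (adjusted p = 2.29e-05), 1.38 at 2 h (adjusted p = 4.5e-10) and 1.36 at 3 h (adjusted p = 6e-10). At 6 h it was 1.67 with SE 0.161, a 3.18-fold rise (adjusted p = 5.05e-12). At 24 h the change was -0.12 and did not pass the test (95% interval -0.44 to 0.19, adjusted p = 0.564). Rat Ifitm genes are close paralogs, and since probe sequences were not used here, signal that one transcript gives on the probes of another was not tested.

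**Figure D2:**
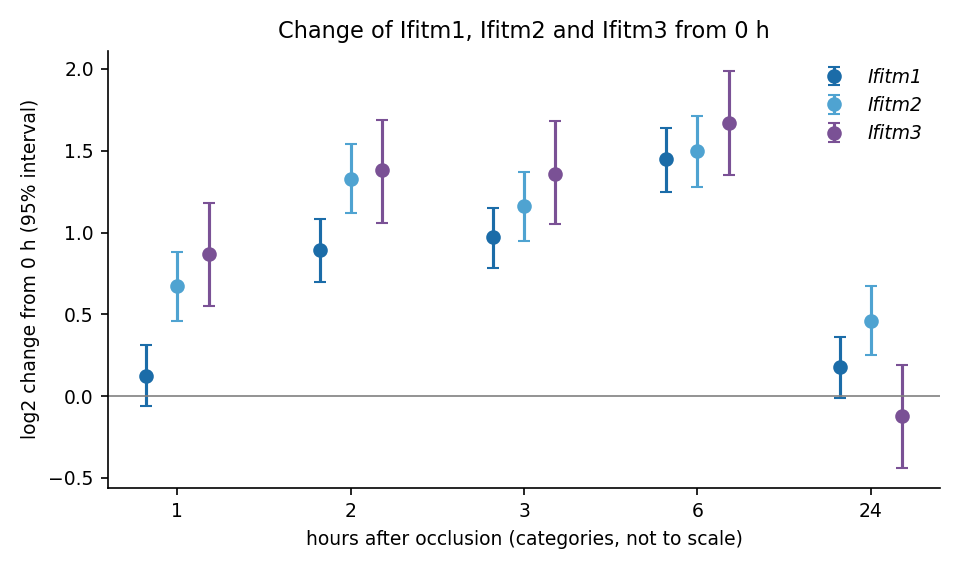
Log2 change from 0 h of Ifitm1, Ifitm2 and Ifitm3 at each later time point; points are differences of the authors' means and bars 95% intervals from limma's moderated variance. At 1 h the interval of Ifitm1 (-0.06 to 0.31) includes 0 and lies below those of Ifitm2 (0.46 to 0.88) and Ifitm3 (0.55 to 1.18), and at 24 h that of Ifitm2 alone lies above 0.

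The intervals of Ifitm1 at 1 h did not overlap those of Ifitm2 and Ifitm3, nor did those of Ifitm2 and Ifitm3 at 24 h. The difference between genes was itself not tested, since it needs the values of single arrays. Expressed as a share of each gene's largest log2 change, Ifitm1 had reached 8.44% at 1 h, Plscr1 28.6%, Ifitm2 44.8%, Ifitm3 52.0% and Ifitm6 52.9%. By 24 h the remaining share was 12.3% for Ifitm1, 30.4% for Ifitm2, 27.8% for Ifitm6 and 25.2% for Plscr1, and -7.49% for Ifitm3, whose mean was below that at 0 h.

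**Figure D3:**
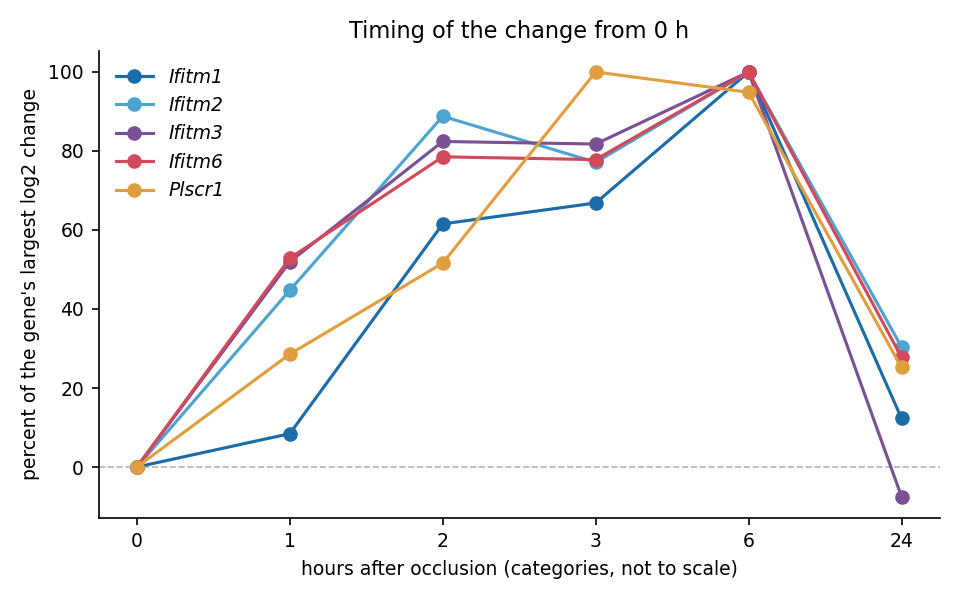
Change from 0 h of each gene as a percent of its own largest log2 change, by hours after occlusion; lines join the authors' means. At 1 h Ifitm1 is at 8.44% and Ifitm6 at 52.9%, Plscr1 reaches its largest change at 3 h and the 4 Ifitm genes at 6 h, and at 24 h the genes lie between -7.49% and 30.4%.

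The step from 1 to 2 h passed the test in all 3 tested Ifitm genes and that from 3 to 6 h in Ifitm1. From 1 to 2 h, Ifitm1 rose by 0.77 (adjusted p = 9.55e-08), Ifitm2 by 0.66 (adjusted p = 1.67e-05) and Ifitm3 by 0.51 (adjusted p = 0.0292), in a step where 4.66% of all probe sets were called higher. From 2 to 3 h the changes were 0.08 for Ifitm1, -0.17 for Ifitm2 and -0.01 for Ifitm3, and none passed the test (adjusted p of 0.761, 0.436 and 0.987); 1.9% of all probe sets were called higher in that step. Ifitm6 differed by -0.03 over the same hour, the hour in which Plscr1 gained 1.51.

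From 3 to 6 h, Ifitm1 rose by 0.48 (adjusted p = 0.00113), whereas the changes of 0.34 in Ifitm2 (adjusted p = 0.0537) and 0.30 in Ifitm3 (adjusted p = 0.322) did not pass; 2.34% of all probe sets were called higher. For Ifitm2 the call depended on the settings, since its adjusted p was 0.0435 once the dimmest 25% of probe sets had been dropped from the fit. Ifitm6 was 0.81 higher at 6 h than at 3 h and Plscr1 0.16 lower by its mean (difference -0.16). From 6 to 24 h all 3 tested genes fell, with changes of -1.27 in Ifitm1 (adjusted p = 1.77e-14), -1.04 in Ifitm2 (adjusted p = 1.45e-10) and -1.79 in Ifitm3 (adjusted p = 2.26e-12), where 8.68% of all probe sets were called lower. The means of Ifitm6 and Plscr1 differed by -2.65 and -2.18 over this interval, rank 4 and rank 12 among all falls.

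Across the 6 means, Pearson's r between pairs of the 5 genes ran from 0.849, between Ifitm3 and Plscr1, to 0.988, between Ifitm2 and Ifitm6. These are correlations over 6 means of the same arrays, given as a description. Among 830 genes whose highest and lowest mean differed by at least 1 on the log2 scale, the 5 profiles most like that of Ifitm6 were LOC102557597 (r = 0.999), Olfm4 (r = 0.998), Alox5ap (r = 0.996), Ak9 (r = 0.994) and Abca13 (r = 0.992). Olfm4 encodes olfactomedin 4, a glycoprotein of neutrophil granules, and its log2 change was 1.75 at 1 h, reached 3.24 at 6 h and was 0.94 at 24 h. Alox5ap, whose product presents arachidonic acid for leukotriene synthesis, had a change of 2.31 at 6 h. Ak9, an adenylate kinase, and Abca13, a membrane transporter, had changes of 1.14 and 1.19 at 6 h.

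The 5 profiles most like that of Plscr1 were LOC691931 (r = 0.995), Ffar2 (r = 0.989), Hk2 (r = 0.987), Fbln1 (r = 0.985) and Mrc1 (r = 0.985). Ffar2, a receptor for short-chain fatty acids, had a change of 0.26 at 1 h and 1.15 at 3 h. Hk2, the hexokinase that phosphorylates glucose at the entry to glycolysis, had a change of 0.25 at 1 h and 2.06 at 3 h. Fbln1, an extracellular matrix protein, had a change of 1.27 at 3 h, and Mrc1, the mannose receptor of macrophages, a change of 1.35. LOC691931 had a change of 1.85 at 3 h and 1.97 at 6 h. No gene was named for both Ifitm6 and Plscr1.

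The rise on chromosome 1 was much smaller beyond the Ifitm cluster. The table placed 9 other probe sets with a symbol within 100 kb of the 4 Ifitm probe sets, and their changes at 6 h ran from -0.57 to 0.38, where the 4 Ifitm genes ran from 1.45 to 3.67. Of these 9 neighbours, 3 were called higher and 1 lower at 6 h, beside 22.5% and 19.3% of all probe sets. The nearest was Ifitm5, a family member known for its role in bone, at chr1:220665683-220666924 on the minus strand, with a change of 0.38 (adjusted p = 2.67e-06) and a signal of 7.62 at 0 h. Athl1, a glycoside hydrolase gene, had a change of 0.33 (adjusted p = 0.00172) and Psmd13, a proteasome subunit gene, one of 0.24 (adjusted p = 0.0273). Sigirr, which encodes an inhibitory receptor of the interleukin-1 receptor family, was lower, with a change of -0.57 (adjusted p = 6e-08). Cox8b, Nlrp6, B4galnt4, Pkp3 and Ano9 had changes between -0.05 and 0.12 at 6 h and did not pass. Their signals at 0 h ran from 5.7 to 6.48, below the median of 6.61 over all probe sets. Whether these signals lay above background was not tested. The probe set of Nlrp6 is shared with LOC103690037.

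**Figure D4:**
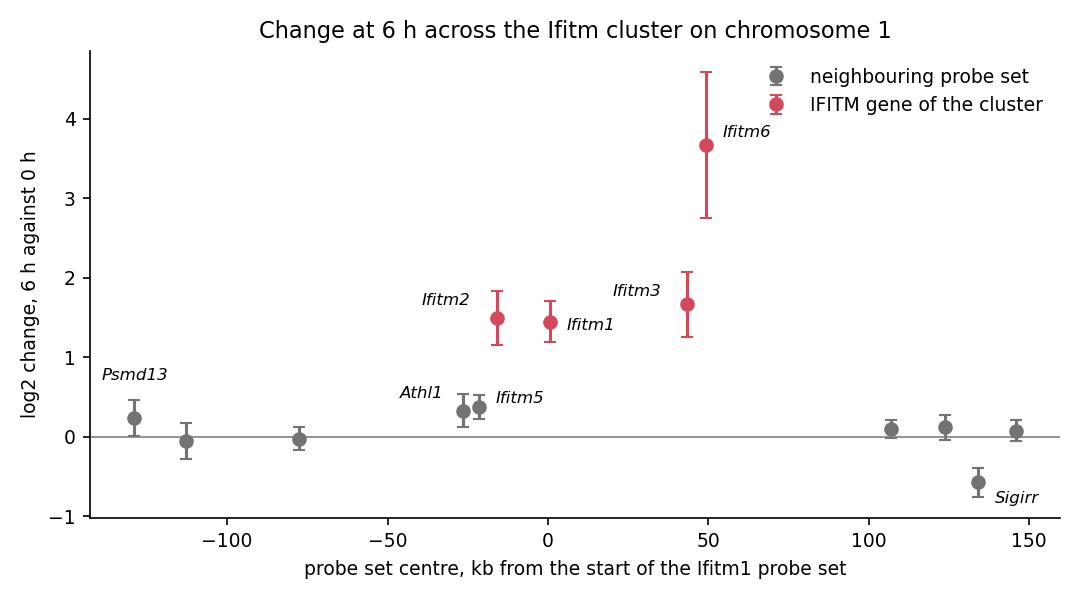
Log2 change at 6 h against 0 h of probe sets in and around the Ifitm cluster, by the distance of the probe set's centre from the start of the Ifitm1 probe set in kb; bars are the highest authors' SD of that probe set at any time point. The 4 Ifitm genes lie between 1.45 and 3.67, and the 9 neighbours between -0.57 (Sigirr) and 0.38 (Ifitm5).

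Other members of the wider CD225 domain family had small measured changes. Their mean signal was 6.86 at 0 h, beside a median of 6.61 over all probe sets. Whether their signals lay above background was not tested. Of 9 measured genes, 5, 3, 4, 4 and 3 were called higher at 1, 2, 3, 6 and 24 h, beside 21.7%, 21.7%, 27.3%, 22.5% and 17.4% of all probe sets, and none lower, with median changes between 0.11 and 0.17. The largest changes were 0.38 in Ifitm5 at 6 h, 0.33 in Ifitm7 at 3 h (adjusted p = 2.75e-05) and 0.31 in Syndig1 at 1 h (adjusted p = 0.000568). The median change of all probe sets was itself 0.05 to 0.07 at 1 to 6 h and 0.04 at 24 h. After the means were centred on that median, 2, 2, 4, 2 and 1 CD225 genes were called higher at 1, 2, 3, 6 and 24 h. Under quantile normalization of the means the count was 3, 3, 5 and 2 at 1, 2, 3 and 6 h.

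At 6 and 24 h, the classical interferon-stimulated genes outside this family were called lower more often than higher. Of 39 listed genes 35 were measured. At 1 h, 11 of the 35 were called higher and 7 lower, against 21.7% of all probe sets higher and 15.4% lower, and their median change was 0.06. At 2 h, 13 were higher and 9 lower (21.7% of all probe sets higher and 18.6% lower), with a median of 0.11. At 3 h, 9 were higher and 12 lower (27.3% of all probe sets higher and 19.2% lower), with a median of -0.02, but 11 were higher and 10 lower after quantile normalization of the means. At 6 h, when the Ifitm genes were highest, 7 were higher and 19 lower, with a median of -0.25, against 22.5% of all probe sets higher and 19.3% lower. At 24 h, 2 were higher and 25 lower, with a median of -0.53, against 17.4% of all probe sets higher and 13.9% lower. The count of lower genes was 17 to 20 at 6 h and 24 to 25 at 24 h over the other settings tried.

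The largest changes in the list were falls. Mx2 fell by 2.21 on the log2 scale at 24 h (adjusted p = 1.16e-21) and Mx1 by 1.72 at 6 h (adjusted p = 9.26e-18); both encode dynamin-like GTPases of antiviral defence. Rtp4, a receptor-transporting protein induced by interferon, fell by 1.75 at 24 h (adjusted p = 7.47e-13). The highest changes of the 35 genes at 1, 2, 3 and 6 h were 0.67, 0.85, 0.82 and 0.73, all of Ifit3 (named after its values were seen). At 2, 3 and 6 h, none of the 35 reached the smallest change among the 5 genes, which was that of Ifitm1 at 0.89, 0.97 and 1.45. At 1 h, 15 of the 35 were at or above the smallest change, again that of Ifitm1 (0.12), and at 24 h 5 were at or above that of Ifitm3 (-0.12). Of 12 neutrophil markers, described below, 10, 9 and 7 were at or above the smallest change of the 5 genes at 2, 3 and 6 h. Of 14 genes for interferon receptors and signalling, 1, 2 and 1 were at or above it at these times. The difference between the lists was not tested.

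Of the 14 measured genes for interferon receptors and their signalling, 7 were called higher and 1 lower at 2 h, 6 higher and 3 lower at 3 h, and 5 higher and 3 lower at 6 h. The count was 3 higher and 2 lower at 1 h, and 2 higher and 6 lower at 24 h. For 1, 2, 3, 6 and 24 h, the shares over all probe sets were 21.7%, 21.7%, 27.3%, 22.5% and 17.4% higher, beside 15.4%, 18.6%, 19.2%, 19.3% and 13.9% lower. Median changes stayed between -0.12 and 0.13. Socs3, the feedback inhibitor of cytokine receptors, rose by 1.74 at 3 h (adjusted p = 1.2e-18) and had a change of 0.13 at 24 h. Stat3, which carries the signal of interleukin-6 type cytokines among others, rose by 1.24 at 3 h (adjusted p = 6.63e-20). Ifngr1, a chain of the receptor for interferon gamma, rose by 1.16 at 6 h (adjusted p = 8.57e-16).

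Other scramblases, and flippases that move phospholipids back, had small median changes. Of 9 measured genes, 1 or 2 were called higher at 1, 2, 3 and 6 h, beside 21.7% to 27.3% of all probe sets, and 3 at 24 h, and 1 or 2 lower at each time point, with medians from 0.01 to 0.16. At 24 h, when 3 were higher and 2 lower, 17.4% of all probe sets were higher and 13.9% lower, and after centring 1 of the 9 was called higher. Xkr8, which scrambles lipids in dying cells, rose by 0.68 at 24 h (adjusted p = 4.3e-05) and Atp11a, a flippase, by 0.59 at 3 h (adjusted p = 0.000257). The fall of 0.62 at 2 h counted for Plscr2 (adjusted p = 0.000357) is that of the probe set it shares with Plscr1. Of the 5 genes for enzymes and partners that act on IFITM proteins, 3 were lower at 1, 2, 3 and 6 h and 2 at 24 h, beside 13.9% to 19.3% of all probe sets, and at most 2 were higher. Under quantile normalization of the means the count lower was 1 at 6 h and 1 at 24 h, and it was also 1 at 24 h with an ordinary test or with 24 h left out of the spread. Zdhhc20, a palmitoyltransferase, fell by 0.93 at 2 h (adjusted p = 3.23e-06), Zmpste24, a membrane protease, by 0.57 at 2 h (adjusted p = 6.43e-05) and Setd7, a methyltransferase, by 0.55 at 6 h (adjusted p = 2.55e-06).

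**Figure D5:**
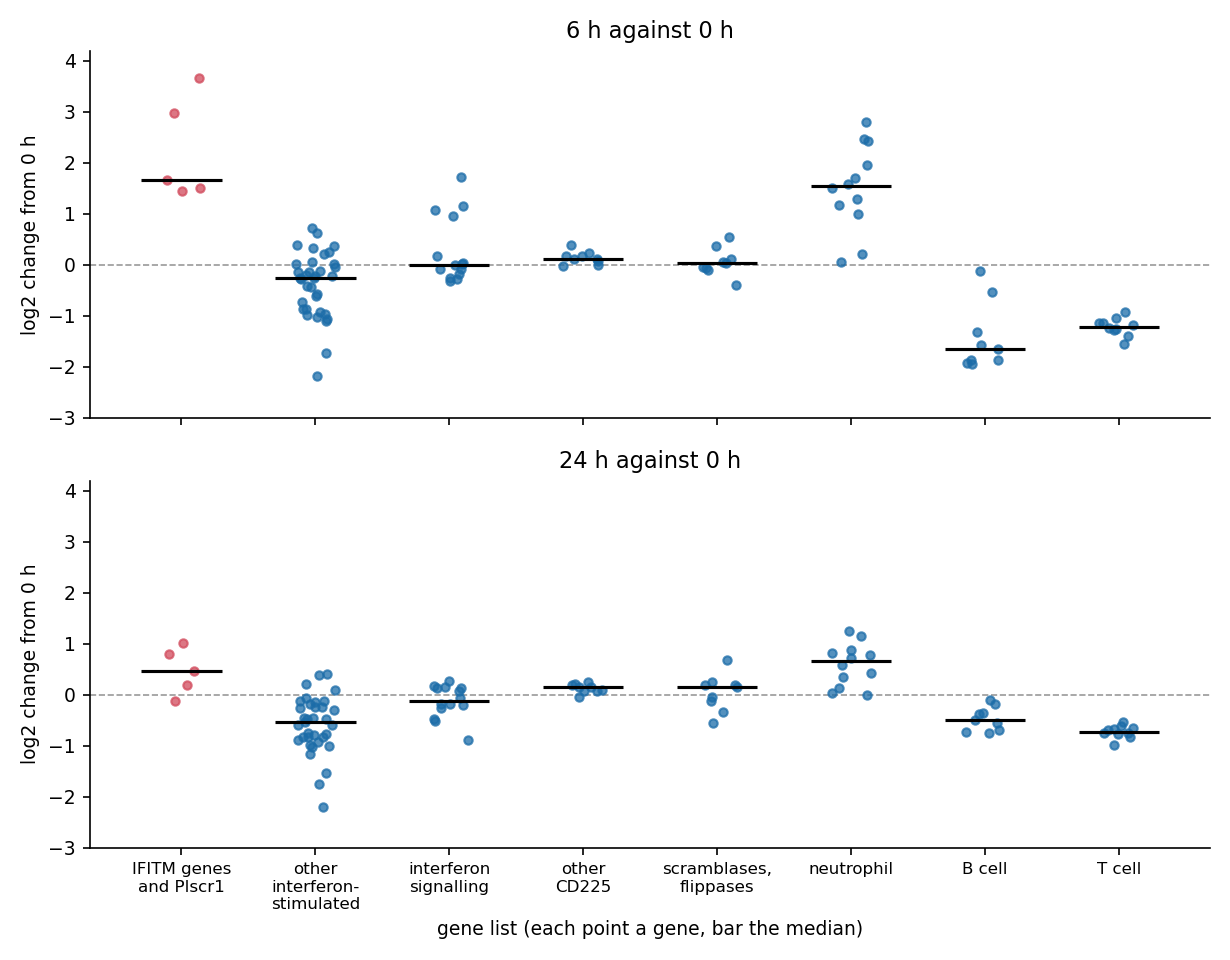
Log2 change from 0 h at 6 h (top) and 24 h (bottom) of the 5 genes and of each measured gene of 7 lists; points are genes, spread sideways for display, and bars list medians. At 6 h the 5 genes lie between 1.45 and 3.67, the neutrophil markers have a median of 1.55 and the other interferon-stimulated genes one of -0.25.

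Neutrophil markers rose over the same hours as the IFITM genes and Plscr1. Of 12 neutrophil markers, 11 were called higher at 1, 2, 3 and 6 h and 9 at 24 h, beside 17.4% to 27.3% of all probe sets, and none lower. The one not called up to 6 h, the granule gene Ltf (named after its values were seen), had a change of 0.06 at 6 h and a signal of 5.86 at 0 h. The mean signal of the 12 was 9.29 before occlusion and 10.33, 10.75, 10.55, 10.8 and 9.88 at 1, 2, 3, 6 and 24 h. Fpr1, a formyl peptide receptor, rose by 2.8 at 2 h, Mmp9, a gelatinase, by 2.75 at 2 h, and Lcn2, a granule protein, by 2.81 at 6 h (adjusted p of 2.38e-19, 1.11e-17 and 5.01e-12).

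Most T and B cell markers were called lower over the same hours, beside 13.9% to 19.3% of all probe sets. All 10 T cell markers were called lower at every later time point, with a median change of -1.21 at 6 h and -0.72 at 24 h, and 8, 9, 8, 8 and 7 of 9 B cell markers were lower at 1, 2, 3, 6 and 24 h, with a median of -1.66 at 6 h. Of 7 NK cell markers, 2, 5, 6, 5 and 6 were called lower at 1, 2, 3, 6 and 24 h, and 1, 1, 0, 1 and 0 higher. The count higher was 0 at 1 and 2 h after centring, and 0 at 2 h with an ordinary test. After quantile normalization the count lower was 1 at 1 h and 3 at 2 h. Of 8 monocyte markers, 0, 2, 3, 3 and 0 were called higher at 1, 2, 3, 6 and 24 h. At the same times 5, 4, 5, 5 and 4 were called lower. Over all probe sets, 17.4% to 27.3% were called higher and 13.9% to 19.3% lower. Cd14, a coreceptor for bacterial lipopolysaccharide, rose by 1.84 at 3 h (adjusted p = 1.04e-13). Emr1, an adhesion receptor of macrophages, fell by 1.9 at 6 h (adjusted p = 8.65e-16). Of 6 platelet markers, 3, 2, 2, 0 and 4 were called higher at 1, 2, 3, 6 and 24 h, beside 17.4% to 27.3% of all probe sets, and none lower; after centring the count was 0 at 2 h and 1 at 3 h. Of 8 erythroid markers, 2 were read from the same probe set and so are not separate measurements. Counting all 8 markers, 2, 0, 1, 0 and 2 were called higher at these times, beside the same 17.4% to 27.3%. At 6 h, 2 were lower (1 after quantile normalization), beside 19.3% of all probe sets.

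Over the 6 means, r with the mean of the neutrophil markers was 0.979 for Ifitm6, 0.974 for Ifitm2, 0.922 for Ifitm3, 0.830 for Ifitm1 and 0.815 for Plscr1. The r with the mean of the other interferon-stimulated genes was 0.00277 for Ifitm6, -0.0087 for Ifitm2, 0.269 for Ifitm3, -0.127 for Ifitm1 and -0.118 for Plscr1. With the mean of the genes for interferon receptors and signalling, r was 0.823 for Ifitm6, 0.834 for Ifitm2, 0.917 for Ifitm3, 0.858 for Ifitm1 and 0.850 for Plscr1. With the mean of the T cell markers, r ran from -0.929 to -0.774. Each r describes 6 means from the same arrays. The part of neutrophil and lymphocyte numbers or of interferon signalling in the changes of the 5 genes was not tested.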

How the data were processed

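The authors' deposited table held 1 row for each of 27596 probe sets, of which 21406 carried a gene symbol in its rn5 annotation. Its values are log2 signal made by the authors with RMA and averaged over the arrays of a time point; deposited SDs are on the same log2 scale, and the kind of mean, plain or robust, is not stated in the table. The processing notes name limma, with no version. A further 47 columns of single arrays had names that match no sample's labels and were not used, so single rats, RNA batches and arrays were not examined. Columns of the authors' own fold changes, p-values and F-tests were not used.

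Changes are differences of the authors' means. A moderated test was computed with limma 3.58.1 in R 4.3.3 from the means, SDs and array numbers (8, or 7 at 6 h), with 1 spread shared by all 6 time points (41 residual degrees of freedom, 5.71 prior), arrays taken as independent, and Benjamini-Hochberg adjustment over all probe sets at 0.05. It was also run on simulated data, with results that are not given here. Since the same rats gave the samples of all time points, with 1 sample missing at 6 h, these p-values do not use the pairing. The number of arrays limits the precision.

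Members, 13 gene lists (135 of 142 genes measured, on 133 probe sets) and alternatives were chosen with earlier results of these data known. Not found under their symbols were Oas3, Eif2ak2, Trim25, Xaf1, Ifnar2, Tmem233 and Plscr5. Genes were named by rule: the members; for Ifitm6 and Plscr1 the 5 genes with the most similar means among 830 of 19255 genes with an own probe set; at most the 3 largest changes passing the test in each list; and neighbours within 100 kb. Exceptions are marked. Alternatives were centring, quantile normalization of the means, an ordinary test, a trended robust prior, the lowest 25% of probe sets left out, and 24 h left out of the spread. The results of 2 genes are not reported by name here.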

Additional observations from a re-analysis of the deposited data

How the results depend on the processing

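Every alternative for Ifitm1, Ifitm2 and Ifitm3 kept its direction and its side of the threshold except the step of Ifitm2 from 3 to 6 h. That change was 0.34, with an adjusted p of 0.0435 when the lowest 25% of probe sets were left out. The adjusted p was 0.0188 when 24 h was left out of the spread, against 0.0537 in the main fit. Over all settings the change ran from 0.34 to 0.36 and the adjusted p from 0.0188 to 0.0702. For centring and quantile normalization the adjusted p of this step is not given singly, so further exceptions are possible there. The cause was not tested. The change of Plscr1 depended on the probe set: on the one shared with Plscr2 it was -0.4, -0.62, -0.15 and -0.55 at 1, 2, 3 and 24 h, opposite to the values reported, and 0.04 at 6 h; the cause was not tested. Centring moved the count of probe sets called higher from 5997 to 3465 at 1 h and from 4794 to 2749 at 24 h. Of 840 alternative counts over the lists and all probe sets, 26 moved by over 1.5 times, 24 of them to a count of 5 or fewer. No paired analysis was possible because the columns of single arrays carry names that match no rat's labels, and order was not used to assign them. Limits are that single-array values were not used and that there was no sham group and no cell count here, and signal over background was not assessed.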
